A study of Homo sapiens with 9 samples.

Results

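The genes described here are 44 genes of DNA replication and S phase, measured in a human T cell leukaemia line after knockdown of *PHF6*. They were chosen by name from the known replication machinery, and each was represented by its brightest probe, out of 19722 genes with a named probe on the array. They had 55 probes in all, 10 genes had more than 1 probe, and all 55 probes were well above background on all 9 arrays. ALL-SIL, an established cell line of T-cell acute lymphoblastic leukaemia (T-ALL), received a control siRNA or 1 of the siRNAs against *PHF6*, named siRNA1 and siRNA2, by electroporation. Each group held 3 samples with the replicate numbers 1, 2 and 3, which the series design calls independent biological replicates. Each sample was hybridized to its own one-colour Agilent array. The control was a non-targeting Silencer Select siRNA, and of the *PHF6* reagents one was a Silencer Select siRNA and the other an ON-TARGETplus SMARTpool, without a statement of which is siRNA1. The cells were taken at 96 h according to most labels and at 72 h according to a free-text description. All groups went through the electroporation, the knockdown is transient and partial, and a single cell line was used. Levels are on the generalized log2 scale of variance stabilization, on which a difference of 1 is close to a doubling or halving of the signal for bright probes. Because probes differ in brightness at equal RNA, levels were compared between arrays and not between genes.

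DNA replication begins in G1, when the origin recognition complex, *CDC6* and *CDT1* load the *MCM2* to *MCM7* helicase onto origins. At the start of S phase *CDC45* and the GINS complex join the helicase and activate it. Primase and the alpha, delta and epsilon polymerases then copy both strands. The RFC complex loads the *PCNA* clamp, and ribonucleotide reductase, *TYMS* and *TK1* supply deoxynucleotides. Most of these genes are induced together at the G1/S boundary by E2F transcription factors, and in proliferating leukaemic T cells they are expressed at high levels. *PHF6* is a nuclear protein with PHD-like zinc fingers that is recurrently mutated in T-ALL.

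Promoters of 4 of the genes are printed because they hold letters of the E2F element: the *E2F1* promoter itself, 2 helicase subunits with paired matches, and *CDT1*. Each line gives, 5′ to 3′ on the strand of the gene, 250 bases before and 50 bases after the start of the gene, taken from RefSeq on build GRCh38.p14. The positions are chr3:127598161-127598460, plus strand for *MCM2*, chr2:135876394-135876693, minus strand for *MCM6*, chr16:88803539-88803838, plus strand for *CDT1* and chr20:33686336-33686635, minus strand for *E2F1*. Capitals mark every match, on either strand, to 1 of the 4 E2F letter strings TTTGGCGC, TTTCGCGC, TTTGCCGC and TTTCCCGC. Matches on opposite strands overlap in *MCM2* and *MCM6* and there form 1 run of capitals.
MCM2: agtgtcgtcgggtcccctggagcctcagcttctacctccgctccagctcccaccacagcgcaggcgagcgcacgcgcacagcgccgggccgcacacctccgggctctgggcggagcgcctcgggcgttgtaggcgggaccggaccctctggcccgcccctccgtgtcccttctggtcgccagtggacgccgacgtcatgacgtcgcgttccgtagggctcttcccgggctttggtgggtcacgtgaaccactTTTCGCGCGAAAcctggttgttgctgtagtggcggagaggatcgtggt
MCM6: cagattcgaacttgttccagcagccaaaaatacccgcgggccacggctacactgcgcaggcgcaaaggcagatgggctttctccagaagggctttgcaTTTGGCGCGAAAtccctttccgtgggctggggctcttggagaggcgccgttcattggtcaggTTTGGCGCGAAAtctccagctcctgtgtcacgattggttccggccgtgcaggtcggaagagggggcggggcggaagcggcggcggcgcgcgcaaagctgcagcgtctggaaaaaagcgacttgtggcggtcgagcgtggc
CDT1: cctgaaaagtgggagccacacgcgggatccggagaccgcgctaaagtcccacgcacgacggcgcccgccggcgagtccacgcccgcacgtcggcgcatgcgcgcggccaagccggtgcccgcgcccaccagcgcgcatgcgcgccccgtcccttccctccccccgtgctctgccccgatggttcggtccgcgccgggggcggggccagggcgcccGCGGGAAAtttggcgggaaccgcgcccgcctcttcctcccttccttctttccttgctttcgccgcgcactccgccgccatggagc
E2F1: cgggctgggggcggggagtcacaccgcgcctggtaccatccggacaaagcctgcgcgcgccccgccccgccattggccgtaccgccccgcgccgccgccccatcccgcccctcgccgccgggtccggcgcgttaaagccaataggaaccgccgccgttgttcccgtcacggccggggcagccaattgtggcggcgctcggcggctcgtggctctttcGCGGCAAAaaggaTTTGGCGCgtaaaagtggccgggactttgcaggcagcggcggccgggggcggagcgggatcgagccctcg

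A promoter window was found for 37 of the 44 genes, and 19 of the 37 (51.4%) held at least 1 of the E2F strings in any of their windows. Over all 27305 genes in the promoter table the share was 3.99%. CCAAT, the letters bound by NF-Y, was found on either strand in 23 of the 37 genes (62.2%), against 39.7% of all genes. TTTGAA or TTCGAA, the letters of the CHR element of late cell cycle promoters, were found in 2 of the 37 genes (5.41%), against 19.5% of all genes. In 19 genes of G2 and mitosis, E2F letters were found in 2 (10.53%), CHR letters in 14 (73.7%) and CCAAT in 17 (89.5%). CCAAT was thus the most frequent of the 3 in both lists. A match is a run of letters only, and no binding was measured here. The 7 genes without a window were *CCNE2*, *POLD3*, *MCM4*, *RPA3*, *RPA2*, *GINS4* and *MCM5*.

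The knockdown was read on the *PHF6* probe first. *PHF6* stood at 11.07, 11.17 and 10.86 with the control siRNA, 9.39, 9.69 and 9.12 with siRNA1 and 9.20, 9.28 and 9.14 with siRNA2. All 6 siRNA arrays lay below all 3 control arrays, with a log2 fold change of -1.73 ± 0.14 (SE), with a 95% interval of -2.04 to -1.42 (limma adjusted p = 0.00274). Without control replicate 2 the fold change was -1.66 with an adjusted p of 0.0527, and within slide 1 alone it was -1.73 with an adjusted p of 0.0581. Of 28 alternatives these 2, both without a term for the replicate number, were the only ones in which *PHF6* lost its call. With that term, over all 9 arrays, the limma adjusted p was 0.000116. The T-lineage markers CD3D, CD3E, CD3G, CD2, CD5, CD7, CD1A, LCK and TLX1 were well above background on all 9 arrays. Of the stromal markers COL3A1 was above background on no array and COL1A1 on 1 array, whereas the B cell gene CD79A was above background on all 9. Between 29690 and 33781 probes were well above background per array, and 33625 probes entered the tests. Replicates 1 and 2 were hybridized on 1 slide and replicate 3 on another, so that for replicate 3 the culture and the slide cannot be told apart.

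The first comparison asked whether reduced *PHF6* altered the replication programme. None of the 44 genes passed the test with both *PHF6* siRNAs against control (limma, adjusted p under 0.05), and none did at an unadjusted p under 0.05. The same test called 3 of all 33625 probes (0.00892%), and 2482 probes (7.38%) had an unadjusted p under 0.05. With a term for the replicate number (the replicate block), which accounts for the pairing of the samples, 844 probes were called (2.51%), and again 0 of the 44 genes. In that paired fit 5 of the 44 genes (11.4%) had an unadjusted p under 0.05, a smaller share than the 21.6% of all probes. They were *MCM2*, *MCM6*, *RFC1*, *RFC2* and *RPA1*, all with lower values, and the lowest adjusted p over the 44 genes was 0.194. For no gene did the 6 siRNA arrays stand apart from the 3 control arrays, as they did upwards for 1.84% and downwards for 2.07% of all probes.

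The 44 log2 fold changes lay between -0.26 for *MCM6* and 0.20 for *CCNE2*. Of the 44 genes 33 had values below 0 and 11 above, with a median of -0.06, against a median of -0.00089 and 49.8% above 0 over all probes. With normexp background correction and quantile normalization the split was 22 below and 22 above, and without control replicate 1 it was 18 below and 26 above, so that the lean to lower values held under neither. Without control replicate 3 the median was -0.16. Standard errors and 95% intervals printed for siRNA comparisons of single genes are from the fit without the replicate block. In that fit the 95% intervals of all 44 genes lay within 1 log2 unit of 0, and those of 34 genes within 0.5. With the replicate block 43 intervals lay within 0.5, the exception being *MCM6*. In bulk RNA of this kind, fewer cells in S phase and less RNA per cell cannot be told apart.

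**Figure D1:**
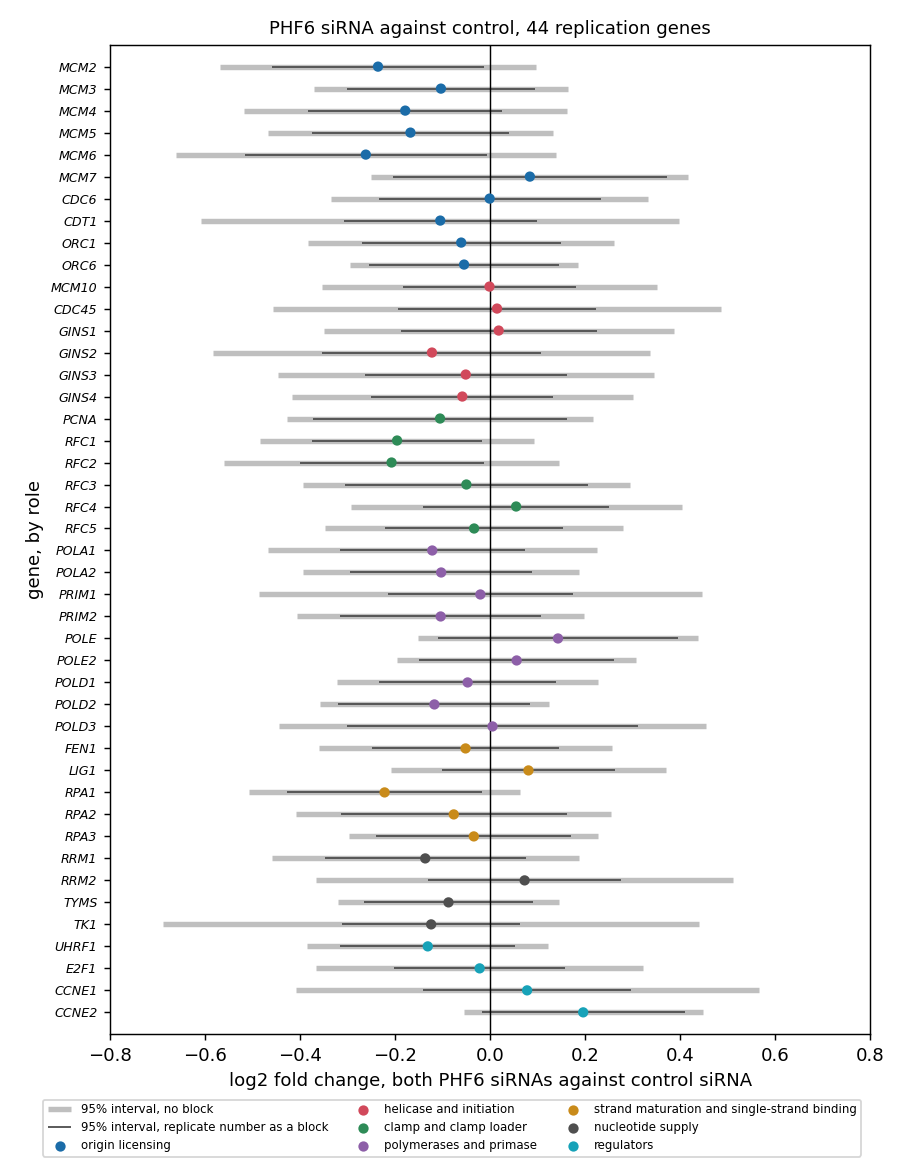
Log2 fold change of both *PHF6* siRNAs against control siRNA (x axis) for the 44 genes (y axis), coloured by role, with the 95% interval without a block (thick grey) and with the replicate block (thin black). The points lie between -0.26 and 0.20, and every thick interval includes 0. The thin intervals of *MCM2*, *MCM6*, *RFC1*, *RFC2* and *RPA1* lie wholly below 0, and none of the 44 genes was called in either fit.

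Among the 10 genes of origin licensing, 9 had log2 fold changes below 0 and 1 above, with a median of -0.10. *MCM6*, a subunit of the hexameric MCM helicase, had the largest difference of the group. *MCM6* stood at 14.40, 14.31 and 14.07 with the control siRNA, 14.19, 13.71 and 13.74 with siRNA1 and 14.50, 13.75 and 14.09 with siRNA2. Within each replicate number the siRNA1 array was the lowest, while siRNA2 replicate 1 was the highest of all 9 arrays, and the groups overlapped. The log2 fold change of *MCM6* was -0.26 ± 0.18 (SE), with a 95% interval of -0.66 to 0.14 (limma adjusted p = 0.783, and 0.218 with the replicate block). *MCM7*, another subunit of the same ring, had the brightest probe of the group. *MCM7* stood at 16.51, 16.83 and 16.61 with the control siRNA, 17.16, 16.63 and 16.60 with siRNA1 and 16.77, 16.67 and 16.56 with siRNA2. A single array, siRNA1 replicate 1, stood high, and the log2 fold change was 0.08 ± 0.15 (SE), with a 95% interval of -0.25 to 0.42 (limma adjusted p = 0.932, and 0.746 with the replicate block). Without that array it was -0.0076, and the second probe of *MCM7* gave -0.13. *MCM2*, named after its values were seen, was lower in all 6 pairs of siRNA and control samples with the same number. *MCM2* stood at 15.13, 14.65 and 14.87 with the control siRNA, 15.001, 14.56 and 14.62 with siRNA1 and 14.68, 14.63 and 14.40 with siRNA2. Its log2 fold change was -0.24 ± 0.15 (SE), with a 95% interval of -0.57 to 0.10 (limma adjusted p = 0.766, and 0.208 with the replicate block).

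The 6 genes of helicase activation, *MCM10*, *CDC45* and the 4 GINS subunits, had log2 fold changes between -0.12 and 0.02, with 4 below 0. *CDC45*, which bridges the MCM ring and GINS in the active helicase, had the brightest probe. *CDC45* stood at 14.27, 14.14 and 13.66 with the control siRNA, 14.34, 13.81 and 13.67 with siRNA1 and 14.53, 14.11 and 13.77 with siRNA2. Its 3 replicate 1 arrays were the highest in each group and its replicate 3 arrays the lowest, and the log2 fold change was 0.01 ± 0.21 (SE), with a 95% interval of -0.46 to 0.49 (limma adjusted p = 0.994, and 0.946 with the replicate block). *GINS2* had the largest difference of this group. *GINS2* stood at 13.06, 12.68 and 12.56 with the control siRNA, 13.00, 12.22 and 12.57 with siRNA1 and 13.06, 12.33 and 12.70 with siRNA2. Only the replicate 2 arrays differed by more than 0.3 between siRNA and control, and the log2 fold change was -0.12 ± 0.21 (SE), with a 95% interval of -0.58 to 0.34 (limma adjusted p = 0.927, and 0.524 with the replicate block).

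Of the 6 clamp and clamp loader genes 5 had values below 0, with a median of -0.08. *RFC2*, a subunit of the complex that opens the *PCNA* ring, was lower in all 6 pairs, as was *RFC1*, the large subunit of the same complex. *RFC2* stood at 11.90, 11.47 and 11.58 with the control siRNA, 11.68, 11.12 and 11.42 with siRNA1 and 11.69, 11.38 and 11.36 with siRNA2. *RFC1* was measured at 12.62, 12.77 and 12.41 with the control siRNA, 12.35, 12.49 and 12.22 with siRNA1 and 12.53, 12.56 and 12.27 with siRNA2. Their log2 fold changes were -0.21 ± 0.16 (SE), with a 95% interval of -0.56 to 0.14 for *RFC2* (limma adjusted p = 0.813, and 0.203 with the replicate block) and -0.20 ± 0.13 (SE), with a 95% interval of -0.48 to 0.09 for *RFC1* (limma adjusted p = 0.775, and 0.194 with the replicate block), and *RFC1* was named after its values were seen. *PCNA*, the sliding clamp, was not lower throughout. *PCNA* stood at 14.81, 14.88 and 14.69 with the control siRNA, 14.68, 14.47 and 14.71 with siRNA1 and 14.86, 14.41 and 15.01 with siRNA2. It was lower with both siRNAs in replicate 2 and highest on the siRNA2 array of replicate 3, and the log2 fold change was -0.11 ± 0.15 (SE), with a 95% interval of -0.43 to 0.22 (limma adjusted p = 0.908, and 0.649 with the replicate block).

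The 9 polymerase and primase genes gave 6 values below 0 and 3 above, between -0.12 and 0.14. *POLE* encodes the catalytic subunit of the leading strand polymerase epsilon. *POLE* stood at 10.25, 10.15 and 10.52 with the control siRNA, 10.55, 10.29 and 10.68 with siRNA1 and 10.40, 10.51 and 10.28 with siRNA2. *POLE* was higher in 5 of 6 pairs, with a log2 fold change of 0.14 ± 0.13 (SE), with a 95% interval of -0.15 to 0.44 (limma adjusted p = 0.852, and 0.496 with the replicate block), and its second, dimmer probe gave 0.40 with an adjusted p of 0.731. *POLD1*, the catalytic subunit of polymerase delta, had the brightest probe. *POLD1* stood at 13.40, 13.21 and 13.24 with the control siRNA, 13.45, 13.15 and 13.13 with siRNA1 and 13.36, 13.25 and 13.09 with siRNA2. Its log2 fold change was -0.05 ± 0.12 (SE), with a 95% interval of -0.32 to 0.23 (limma adjusted p = 0.955, and 0.778 with the replicate block).

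Strand maturation and single-strand binding comprised *FEN1*, *LIG1* and the 3 subunits of RPA, of which 4 had values below 0. *RPA1*, the large DNA-binding subunit of RPA, was lower in all 6 pairs. *RPA1* stood at 13.12, 13.07 and 12.81 with the control siRNA, 12.94, 12.61 and 12.70 with siRNA1 and 12.96, 12.68 and 12.78 with siRNA2. The control array of replicate 3 lay within the range of the siRNA arrays, and the log2 fold change was -0.22 ± 0.13 (SE), with a 95% interval of -0.51 to 0.06 (limma adjusted p = 0.744, and 0.198 with the replicate block). The second probe of *RPA1* gave 0.16, in the other direction. *RPA3*, the small RPA subunit, had the brightest probe of the group. *RPA3* stood at 14.34, 14.36 and 14.06 with the control siRNA, 14.31, 14.23 and 14.10 with siRNA1 and 14.28, 14.13 and 14.25 with siRNA2. Its log2 fold change was -0.03 ± 0.12 (SE), with a 95% interval of -0.30 to 0.23 (limma adjusted p = 0.965, and 0.86 with the replicate block). *LIG1*, the ligase that joins Okazaki fragments, was the only one of the 44 genes to be higher in all 6 pairs, by between 0.01 and 0.22, and its log2 fold change was 0.08 ± 0.13 (SE), with a 95% interval of -0.21 to 0.37 (limma adjusted p = 0.925, and 0.607 with the replicate block). *LIG1* was named after its values were seen. In the other direction, 6 of the 44 genes were lower in all 6 pairs, namely *MCM2*, *RFC1*, *RFC2*, *POLA2*, *RPA1* and *TYMS*. The 6 pairs are not independent, since the siRNAs share their control samples. No share over all probes is given for either pattern, so neither is read as particular to these genes.

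Nucleotide supply was represented by *RRM1*, *RRM2*, *TYMS* and *TK1*, of which 3 had values below 0. *RRM1*, the large subunit of ribonucleotide reductase, had the largest difference. *RRM1* stood at 13.55, 13.65 and 13.20 with the control siRNA, 13.39, 13.49 and 13.02 with siRNA1 and 13.45, 13.34 and 13.29 with siRNA2. Its log2 fold change was -0.14 ± 0.15 (SE), with a 95% interval of -0.46 to 0.19 (limma adjusted p = 0.87, and 0.432 with the replicate block). *TK1*, the thymidine kinase that salvages thymidine in S phase, had the widest spread over the 9 arrays of all 44 genes, with an SD of 0.39. *TK1* stood at 17.33, 16.77 and 16.43 with the control siRNA, 17.10, 16.60 and 16.27 with siRNA1 and 17.29, 16.58 and 16.46 with siRNA2. In each group replicate 1 was highest and replicate 3 lowest, and the log2 fold change was -0.12 ± 0.25 (SE), with a 95% interval of -0.69 to 0.44 (limma adjusted p = 0.939, and 0.42 with the replicate block). Without control replicate 1 the fold change was 0.12, in the other direction.

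The 4 regulators were *E2F1*, the cyclins *CCNE1* and *CCNE2* that activate *CDK2* at the G1/S boundary, and *UHRF1*, which carries DNA methylation through replication. *CCNE2* was the gene with the largest positive difference of the 44. *CCNE2* stood at 11.28, 11.36 and 11.17 with the control siRNA, 11.32, 11.24 and 11.35 with siRNA1 and 11.68, 11.46 and 11.75 with siRNA2. The 3 siRNA2 arrays lay above all 6 other arrays, whereas siRNA1 and control overlapped. Against control the log2 fold change of *CCNE2* was 0.36 ± 0.13 (SE), with a 95% interval of 0.07 to 0.65 for siRNA2 (limma adjusted p = 0.825, and 0.127 with the replicate block) and 0.03 ± 0.13 (SE), with a 95% interval of -0.26 to 0.32 for siRNA1 (limma adjusted p = 0.982). With the replicate block on the normexp and quantile values the siRNA2 difference was 0.39 with an adjusted p of 0.0489, the only call among the 44 genes in any siRNA comparison under the settings tried. *CCNE2* was the only one of the 44 genes (2.27%) with the siRNA2 arrays all above the control arrays, against 4.35% of all probes, and no gene was wholly below, against 5.32% of all probes. *UHRF1*, the brightest of the regulators, was lower in 5 of 6 pairs. *UHRF1* stood at 14.30, 14.42 and 14.10 with the control siRNA, 14.10, 14.19 and 13.99 with siRNA1 and 14.20, 14.23 and 14.16 with siRNA2. Its log2 fold change was -0.13 ± 0.11 (SE), with a 95% interval of -0.39 to 0.12 (limma adjusted p = 0.84, and 0.384 with the replicate block).

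Each siRNA was also compared with control on its own. With siRNA1 34 of the 44 genes had values below 0 (median -0.08), while 48.9% of all probes had values above 0. None of the 44 was called, against 3 of all probes (0.00892%), and with the replicate block none against 0.773% of all probes. With siRNA2 28 genes had values below 0 (median -0.03), while 51.3% of all probes had values above 0. None of the 44 was called, against 0.0119% of all probes, and with the replicate block none against 1.38%. Under normexp and quantile normalization only 20 of the 44 genes lay below 0 with either siRNA. Without control replicate 1 it was 20 with siRNA1 and 18 with siRNA2. At an unadjusted p under 0.05, *CCNE2* was the only gene with siRNA2, against 5.88% of all probes, and none was found with siRNA1, against 5.94%. In the paired fit there were 3 genes with siRNA2 (*MCM2*, *MCM4* and *CCNE2*, 6.82%), against 19.3% of all probes, and 4 with siRNA1 (*MCM6*, *RFC1*, *RFC2* and *RPA1*, 9.09%), against 19.1%. Both comparisons share the 3 control samples. Between the siRNAs no gene and no probe was called (0% of all probes, limma), *CCNE2* being the only gene at an unadjusted p under 0.05 (2.51% of all probes), and with the replicate block none of the 44 genes against 0.0387% of all probes. There the 3 genes *MCM4*, *PRIM2* and *CCNE2* had an unadjusted p under 0.05 (6.82%), against 9.56% of all probes.

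The differences of matched pairs varied between replicate numbers. The median over the 44 genes of siRNA1 minus control was -0.04 in replicate 1, -0.20 in replicate 2 and 0.0029 in replicate 3. For siRNA2 minus control it was -0.02, -0.12 and 0.06. In replicate 2 the siRNA1 sample was lower than its control for 40 of the 44 genes, whereas in replicate 3 it was lower for 21. The lean to lower values therefore lay mainly in replicate 2, and the median with both siRNAs was 0.0075 in the paired fit without replicate 2. Within slide 1, which held replicates 1 and 2, 36 of the 44 genes had values below 0 with a median of -0.11. In that fit, which had no term for the replicate number, no probe of all 33625 was called, that of *PHF6* included. With the replicate block on the same arrays, 493 probes were called higher and 104 lower, and none of the 44 genes. Of the 10 genes with more than 1 probe, 3 had probes that differed in sign with both siRNAs, namely *MCM7*, *PRIM2* and *RPA1*.

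Most of the variation of these genes lay between the replicate numbers instead of the siRNA groups. For the median gene 62.9% of the sum of squares over the 9 arrays was between replicate numbers and 11.1% between siRNA groups, against 50.02% and 19.9% for the median of all tested probes. The share between replicate numbers was the larger one for 37 of the 44 genes (84.1%), and for 70.6% of all probes. It was 94.1% for *TK1*, 92.9% for *MCM10*, 90.3% for *GINS4*, 89.97% for *RFC5* and 89.5% for *CDT1*. All 6 genes of helicase activation had shares of at least 82.2%. At the other end were *CCNE2* with 3.60% between replicate numbers and 77.0% between siRNA groups, and *POLD2*, a subunit of polymerase delta, with 6.74% and 51.9%.

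**Figure D2:**
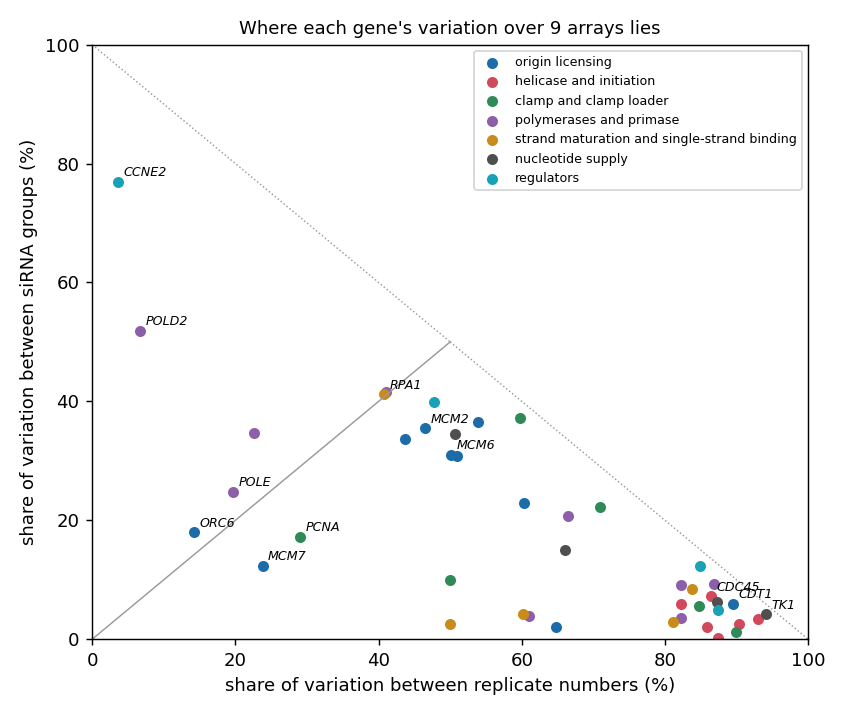
Share of each gene's variation over 9 arrays that lay between replicate numbers (x axis, percent) and between siRNA groups (y axis, percent), coloured by role, with 1 point per gene. On the solid line both shares are equal and on the dotted line they make up all of the variation. Most genes lie below the solid line, and *CCNE2* is alone at the upper left.

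The replicate numbers were then compared directly, with the siRNA group as a term in the model, a comparison chosen after seeing the data. Each side of such a comparison is 1 replicate number, with 1 array per siRNA group. Its p-values, here and below, measure the spread left among these arrays and not the spread between independent cultures. Replicate 1 had the highest mean for 34 of the 44 genes and the lowest for none. Between replicates 3 and 1, 20 of the 44 genes (45.5%) were lower in replicate 3 and none was higher (limma, adjusted p under 0.05), against 17.1% of all probes called lower and 12.1% called higher. Between replicates 2 and 1, 6 genes (13.6%) were lower in replicate 2 and none was higher, against 4.03% and 4.20% of all probes. Between replicates 3 and 2, 4 genes (9.09%) were lower in replicate 3 and none was higher, against 14.4% and 10.6% of all probes. The direction of this last comparison turned with normexp and quantile normalization, where 5 genes were called higher and 3 lower in replicate 3 and 26 of the 44 had values above 0. The median log2 difference over the 44 genes was -0.30, -0.22 and -0.07 in these 3 comparisons, in the order given, and in the last one 0.052 with normexp and quantile.

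The genes lower in replicate 3 than in replicate 1 were spread over the roles. They were all 6 genes of helicase activation, 4 of origin licensing, 3 of the clamp loader, 3 of the polymerases and primase, 2 of nucleotide supply, 2 regulators and none of strand maturation. *TK1* had the largest difference, with -0.85 ± 0.10 (SE, limma adjusted p = 0.00089). *CDT1*, the licensing factor degraded in S phase, differed by -0.72 ± 0.10 (SE, limma adjusted p = 0.00193). *CDT1* stood at 14.25, 14.15 and 13.44 with the control siRNA, 14.13, 13.76 and 13.41 with siRNA1 and 14.17, 14.05 and 13.53 with siRNA2. The 3 replicate 3 arrays of *CDT1* lay below all 6 others. *CDC45* differed by -0.68 ± 0.11 (SE, limma adjusted p = 0.00264), *PRIM1*, the catalytic subunit of primase, by -0.68 ± 0.10 (SE, limma adjusted p = 0.00213) and *RRM2*, the small subunit of ribonucleotide reductase, by -0.62 ± 0.10 (SE, limma adjusted p = 0.00347). In replicate 2 against replicate 1, *CCNE1* differed by -0.69 ± 0.11 (SE, limma adjusted p = 0.00705), *GINS2* by -0.63 ± 0.12 (SE, limma adjusted p = 0.0131) and *TK1* by -0.59 ± 0.10 (SE, limma adjusted p = 0.00736). The call of *GINS2* was lost, with adjusted p-values of 0.0505 to 0.0896, when siRNA1 or siRNA2 of replicate 1 or replicate 2 was left out, and that of *CCNE1* without siRNA1 replicate 2 (adjusted p = 0.0550).

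These counts depended on single arrays. For replicate 3 against replicate 1, the 20 genes became 6 without siRNA1 replicate 1, 8 without siRNA2 replicate 1, 9 without control replicate 3, 12 without siRNA1 replicate 3 and 11 without siRNA2 replicate 3. For replicate 2 against replicate 1, the 6 genes became 3 without control replicate 1, 2 without siRNA1 replicate 1, 2 without siRNA2 replicate 1 and 1 without siRNA1 replicate 2. For replicate 3 against replicate 2, the 4 genes became 2 without control replicate 1, siRNA1 replicate 1 or siRNA1 replicate 2, and 1 without control replicate 2 or any of the replicate 3 arrays. Leaving out an array also leaves fewer samples.

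**Figure D3:**
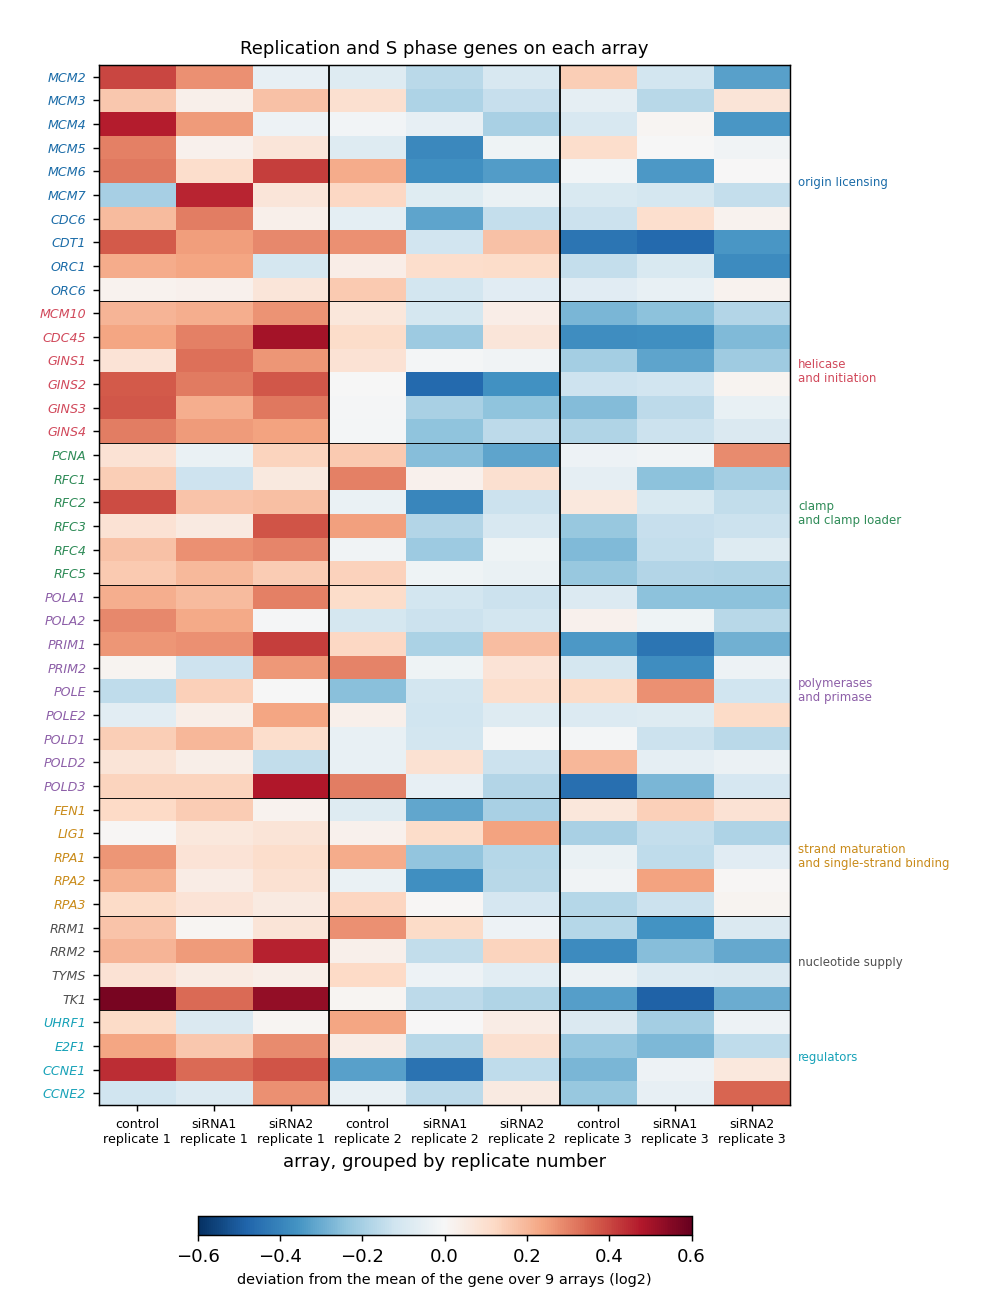
Deviation of each of the 44 genes (rows, by role) from its own mean over 9 arrays (log2, colour scale from -0.6 to 0.6, larger deviations drawn at the end of the scale), with the arrays (columns) grouped by replicate number. The 3 replicate 1 arrays are red for most genes. Within replicate 2 the siRNA1 array is lower than its control for 40 of the 44 genes, with a median difference of -0.20.

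Genes of G2 and mitosis, listed for comparison, took a different order. On the control arrays the median deviation of the 44 replication genes from their own means was 0.18, 0.04 and -0.11 in replicates 1, 2 and 3, and that of 23 G2/M genes was -0.23, 0.30 and -0.03. With siRNA1 it was 0.17, -0.14 and -0.13 for the replication genes and -0.16, 0.22 and 0.04 for the G2/M genes. With siRNA2 it was 0.17, -0.07 and -0.09 and, for the G2/M genes, -0.12, 0.03 and -2.3e-05. The G2/M deviation in replicate 2 was thus 0.30, 0.22 and 0.03 in the 3 groups. Replicate 1 had the lowest mean for 16 of the 23 G2/M genes and replicate 2 the highest for 20. Between replicates 2 and 1, 10 G2/M genes were higher and none lower in replicate 2, against 4.20% of all probes called higher. Between replicates 3 and 1, 6 were higher and none lower in replicate 3, against 12.1%, and between replicates 3 and 2, 5 were lower and none higher, against 14.4% called lower. The 10 became 0 without siRNA1 replicate 1 or siRNA1 replicate 2, 1 without control replicate 1 or control replicate 2, 5 without siRNA2 replicate 1, siRNA1 replicate 3 or siRNA2 replicate 3, 2 with VSN on the processed signal or the 75th percentile, 1 with no filter and 16 with normexp and quantile. The 6 became 1 without siRNA1 replicate 1, 2 without control replicate 1 or siRNA2 replicate 3, and 3 without siRNA1 replicate 3 or with no filter, and lay between 2 and 11 over the other normalizations. The 5 became 1 without siRNA1 or siRNA2 replicate 3, 2 without control or siRNA1 replicate 2, with the 75th percentile or with no filter, and 3 without siRNA1 replicate 1 or control replicate 3. *PLK1*, the mitotic polo-like kinase, differed by 0.57 ± 0.10 (SE, limma adjusted p = 0.00808) between replicates 2 and 1 and by 0.55 ± 0.10 (SE, limma adjusted p = 0.00417) between replicates 3 and 1. *CDC20*, the activator of the anaphase-promoting complex, differed by 0.54 ± 0.11 (SE, limma adjusted p = 0.00872) between replicates 3 and 1. Without siRNA1 replicate 1 the adjusted p was 0.0687 for *PLK1* between replicates 2 and 1 and 0.0575 for *CDC20*, and without siRNA1 replicate 2 it was 0.0622 for *PLK1*. With both *PHF6* siRNAs against control none of the 23 was called, with or without the replicate block, against 0.00892% and 2.51% of all probes without and with it. None had an unadjusted p under 0.05 in either fit, against 7.38% and 21.6% of all probes. *PLK1* and *CDC20* were named after their values were seen.

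The rest of the replication machinery was followed with 63 other genes of licensing, initiation, fork protection, polymerases, maturation, nucleotide supply, replication-coupled chromatin and G1/S control. None was called with both *PHF6* siRNAs against control by limma, with or without the replicate block, against 0.00892% of all probes without and 2.51% with it. At an unadjusted p under 0.05 there were 2 without and 6 with the block, both smaller shares than the 7.38% and 21.6% of all probes. Of the 63 genes 38 had values below 0 (median -0.03), a split that turned to 23 below 0 with normexp and quantile and to 25 without control replicate 2. Between replicates 3 and 1, 21 of the 63 were lower in replicate 3 and none was higher, against 17.1% of all probes called lower and 12.1% called higher. The 21 became 9 without siRNA1 replicate 1, 11 without siRNA2 replicate 1 or siRNA1 replicate 3, 12 without control replicate 3 or siRNA2 replicate 3 and with no filter, and 10 with the 75th percentile. With normexp and quantile 19 were lower and 7 higher. Among them were 4 of 8 genes of replication-coupled chromatin, namely *CHAF1A* and *CHAF1B* of the chromatin assembly factor, the histone chaperone *ASF1B* and *HELLS*, and 4 of 7 initiation genes, namely *CDC7*, *RECQL4*, *TICRR* and *DONSON*. These genes were named after their values were seen. The 21 also held 4 of 8 genes of fork protection and clamp loading and 3 of 7 of nucleotide supply. They held 3 of 17 genes of G1/S control and 1 each of licensing, polymerases and maturation. Among the 37 genes with a promoter window, the median difference between replicates 3 and 1 was -0.23 for the 19 with E2F letters and -0.32 for the 18 without, and 7 and 10 of them were called lower. With both *PHF6* siRNAs the medians were -0.09 and -0.05.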

How the data were processed

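The authors deposited one-colour spot intensity values and spot flags, read with Agilent Feature Extraction (version 9.1 per the labels, 10.5.1.1 per the file headers), and a table of log2 values normalized with VSN, used here as an alternative. The VSN model was refitted to the median intensity without background subtraction by code written here (7 iterations, trimming quantile 0.9), since the vsn package was not installed. Spots marked as outliers were dropped, and none was saturated. A probe entered the tests if 3 or more arrays had it well above background. Tests used limma 3.58.1 in R 4.3.3 (statmod 1.5.0) over all 9 arrays, with Benjamini-Hochberg adjustment over 33625 probes. The number of arrays limits the precision.

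Transcript accessions were matched to RefSeq symbols for 25729 of 57176 probes. Pairing was checked on deviations from group means: the correlation was 0.303 to 0.724 in 9 pairs of samples sharing a replicate number from the labels and -0.548 to 0.132 in 18 other pairs, so the numbers were taken as pairs. The 44 genes and the other gene lists were chosen with earlier results of these data known. Named genes are those called, and in each role the one with the largest difference and the one with the brightest probe. The tests were also run on simulated data drawn from the measured probe means. Alternatives were VSN on the processed signal, scaling to the 75th percentile, normexp (offset 50) with quantile normalization, the deposited table, other filters, outlier spots kept, replicate or slide blocks, a trended robust prior, only the arrays compared, single slides, each array left out, and the probes of each gene averaged.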

Additional observations from a re-analysis of the deposited data

Results flagged for a closer look

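*E2F1* was the only one of the 44 genes with opposite signs under the siRNAs in every pair. No share over all probes is given for this pattern. The siRNA1 samples were lower than their controls by 0.07, 0.21 and 0.04 in replicates 1, 2 and 3, and the siRNA2 samples higher by 0.05, 0.05 and 0.08. The difference between siRNA2 and siRNA1 was 0.17 with a 95% interval of -0.23 to 0.57, and limma gave it an adjusted p of 0.9999 (0.587 with the replicate block), so it did not pass the test.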

How the results depend on the processing

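With both *PHF6* siRNAs against control, none of the 44 genes was called under any of 28 alternatives, the replicate block included (0 calls), and the lowest adjusted p of any gene was 0.0886. The paired fit changed no call among the 44 genes in any siRNA comparison. The replicate block on normexp and quantile values, added after seeing the data, called 1 gene with siRNA2 (*CCNE2*) and 1 of the 63 other replication genes with both siRNAs. The median over the 44 genes ranged from -0.16 (without control replicate 3) to 0.011 over the arrays left out for both siRNAs, from -0.18 to 0.0032 for siRNA1 and from -0.12 to 0.02 for siRNA2, and it was 0.056 for siRNA2 on slide 2 alone. Between the siRNAs the median was 0.068 in the main fit, with 32 of the 44 genes higher with siRNA2, against 51.9% of all probes. The median was 0.049 with VSN on the processed signal and with the 75th percentile and 0.012 with normexp and quantile, and the same with the replicate block added. It ranged from -0.031 to 0.17 over the arrays left out, and without siRNA2 replicate 1 only 15 of the 44 genes were higher with siRNA2. For replicate 3 against replicate 1, 12 genes were lower with the 75th percentile and 13 with no filter, and 6 to 22 with arrays left out. For replicate 2 against replicate 1 the counts were 3, 15 with normexp and quantile, 3 with no filter, and 1 to 7 with arrays left out. For replicate 3 against replicate 2 they were 0 with the 75th percentile, 3 (and 5 higher, median 0.052) with normexp and quantile, 9 with the deposited table, 1 with no filter, 7 (and 1 higher) with the filter on all 9 arrays, and 1 to 4 with arrays left out. The cause was not tested.

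Of 17 named replication genes, 10 kept their sign for both siRNAs under all alternatives. *MCM7* was -0.16 with VSN on the processed signal and -0.14 with the 75th percentile, in both cases also with the replicate block, -0.023 as the mean of its probes and -0.0076 to 0.17 with arrays left out, and -0.11 with the block without replicate 1. *CDC45* was -0.036 and -0.016 in the former settings, -0.0083 within slide 1, -0.17 to 0.14 with arrays left out, and -0.061 and -0.0083 with the block without replicates 1 and 3. *GINS2* reached 0.022, *PCNA* 0.061 and *RPA3* 0.037 with the block without replicate 2. *PCNA* was 0.0019, *POLD1* 0.023 and *RPA3* 0.073 with normexp and quantile, block or not. With arrays left out *GINS2* ranged from -0.22 to 0.021, *POLD1* from -0.10 to 0.011, *RPA3* from -0.13 to 0.018 and *TK1* from -0.33 to 0.12. *CCNE2* with siRNA1 was -0.039 within slide 1 and with the block without replicate 3, and -0.015 to 0.076 with arrays left out.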
